A study of Mus musculus with 162 samples.

Results

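Apolipoproteins are the protein coat of the particles that carry fat and cholesterol in blood, and the 10 genes described here are 9 of them (Apob, Apoa1, Apoa2, Apoa4, Apoa5, Apoc1, Apoc2, Apoc3 and Apoe) together with Mttp, which encodes the transfer protein that loads lipid onto ApoB. They were taken from the count table by gene symbol, and all 10 were found among its 53686 genes. Very-low-density lipoprotein (VLDL) is built in the endoplasmic reticulum of hepatocytes, where MTTP transfers triglyceride to ApoB while ApoB is being made, and the particle then leaves through the Golgi. In blood ApoC2 activates lipoprotein lipase, ApoC3 restrains it, ApoA5 favours triglyceride clearance, and ApoE is the ligand by which remnants are taken up. ApoA1 and ApoA2 are the main proteins of high-density lipoprotein, and during a fast the liver receives fatty acids from fat depots and returns part of them to blood as VLDL.

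The study sequenced mRNA from 9 organs of male C57BL/6J mice, aged 8 to 9 weeks and kept on 12 h of light and 12 h of dark, that had food withdrawn for 0, 2, 8, 12, 18 or 22 h. Each of the 6 time points had 3 mice, and each of the 18 mice gave all 9 organs, killed at one clock time, so that the start of the fast differed in clock time between groups, and the longest fasts began in the dark phase before. The organs were liver (LIV), stomach (STM), interscapular brown fat (iBAT), perigonadal and posterior subcutaneous white fat (pgWAT and psWAT), olfactory bulb (OB), brain (BRN), cerebellum (CBL) and brainstem (BST). The study left out 5 libraries, namely brain 8 h replicate 3, brain 18 h replicate 1, brown fat 22 h replicate 1, psWAT 22 h replicate 2 and stomach 12 h replicate 3. The retained libraries held 3045845 to 27801717 counts, with a median of 8735554, and the 18 liver libraries held 6959200 to 12451777. A count of 3, taken as the floor that a count of 0 allows, equals 0.108 to 0.985 CPM (the count scaled to a fixed library total) in a retained library, and covers counting error alone.

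Marker genes matched the organ labels in most libraries, and the exceptions matter for genes that are far higher in liver than elsewhere. The summed level of 15 hepatocyte genes, led by albumin, had a median of 95794 CPM in liver. In stomach it had a median of 23.5 CPM but reached 589.9 in 0 h replicate 3 and 1427 in 12 h replicate 2. In pgWAT it reached 4996 CPM in 18 h replicate 2, where albumin alone stood at 3392 CPM, and 446 CPM in 22 h replicate 1. The pgWAT 22 h replicate 2 library held 3868 CPM of 5 white adipocyte genes, against 18763 to 40580 in the other pgWAT libraries. It also held 562 CPM of 5 skeletal muscle genes. In psWAT the 12 h replicate 3 library held 3998 CPM of 5 neuron genes and 2929 CPM of 5 cerebellar granule cell genes, 12 h replicate 1 held 463 CPM of 8 pancreatic acinar genes, and 5 skeletal muscle genes summed to between 15.4 and 30362 CPM. The psWAT 8 h replicate 1 library was, over all genes, nearest to pgWAT and not to its own organ. In brown fat the 2 retained 22 h libraries differed from the others by transcript length, since the 1154 genes with the fewest exon bases exceeded the 5554 with the most by 1.90 and 1.23 log2 units relative to 0 h, against -0.42 to 0.61 in the other brown fat libraries.

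The other marker lists had their highest organ median where the label places them, with exceptions. The 5 brown adipocyte genes summed to 7133 CPM in brown fat, 5 white adipocyte genes to 23531 in pgWAT against 3055 in psWAT and 3780 in brown fat, 6 parietal and chief cell genes to 137667 in stomach, and 5 granule cell genes to 4157 in cerebellum. Neuron genes were highest in olfactory bulb at 6930 CPM, 5 microglia genes there at 402, 7 astrocyte genes in brainstem at 2976, and 5 Schwann cell and oligodendrocyte genes in brainstem at 19405. The 6 choroid plexus genes peaked in liver at 7751 CPM because Ttr, the most abundant of them there, is also a liver gene, and 10 macrophage and Kupffer cell genes peaked in pgWAT at 996 against 268 in liver. Acinar and muscle genes had no organ of their own in the series and had their highest medians in stomach, at 22.9 and 1375 CPM.

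Liver was the main source of these transcripts. The 10 genes took 5.70% ± 0.638 (SD, n = 18) of all liver counts, between 4.77 and 6.92%, against 0.473% in pgWAT, 0.238% in olfactory bulb, 0.189% in psWAT, 0.171% in brain, 0.145% in stomach, 0.140% in brown fat, 0.102% in brainstem and 0.0838% in cerebellum. Levels are given as normalized CPM, which is CPM with each library total scaled by a factor (TMM) computed within the organ. Per kilobase of exon, the scale on which genes can be compared, the liver medians ran from 17857 for Apoa2 through 10256 for Apoa1, 8873 for Apoe, 8542 for Apoc1, 4070 for Apoc3, 642 for Apoa5, 192.9 for Apob and 62.3 for Apoa4 to 28.1 for Mttp. Apoc2 stood at 8.39 per kilobase, but 79.5% of its exon bases are shared with the same-strand gene Gm44805, reads there are assigned to neither gene, and its values are therefore not its abundance. Exon lengths and overlaps were taken from a later Gencode release than the one used for the counts. The strand setting of the counting is not stated, so the values of Apoa4, Apoa5 and Mttp, which overlap genes on the opposite strand, assume strand-aware counting.

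Across organs, the edgeR fit with time point as a term put all 10 genes higher in liver than in each of the 8 other organs at an adjusted p under 0.05. Among all genes the share higher in liver was 33.6% against stomach, 32.1% against brown fat, 31.6% against pgWAT, 28.3% against psWAT, 38% against olfactory bulb, 38.9% against brain, 39.1% against cerebellum and 38.6% against brainstem. Outside liver, the genes fell into a few patterns. Apob, Apoa1 and Apoa4 had stomach as their other organ, Apoc1 had fat, and Mttp, Apoe and Apoc1 passed the filter in all 9 organs.

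**Figure D1:**
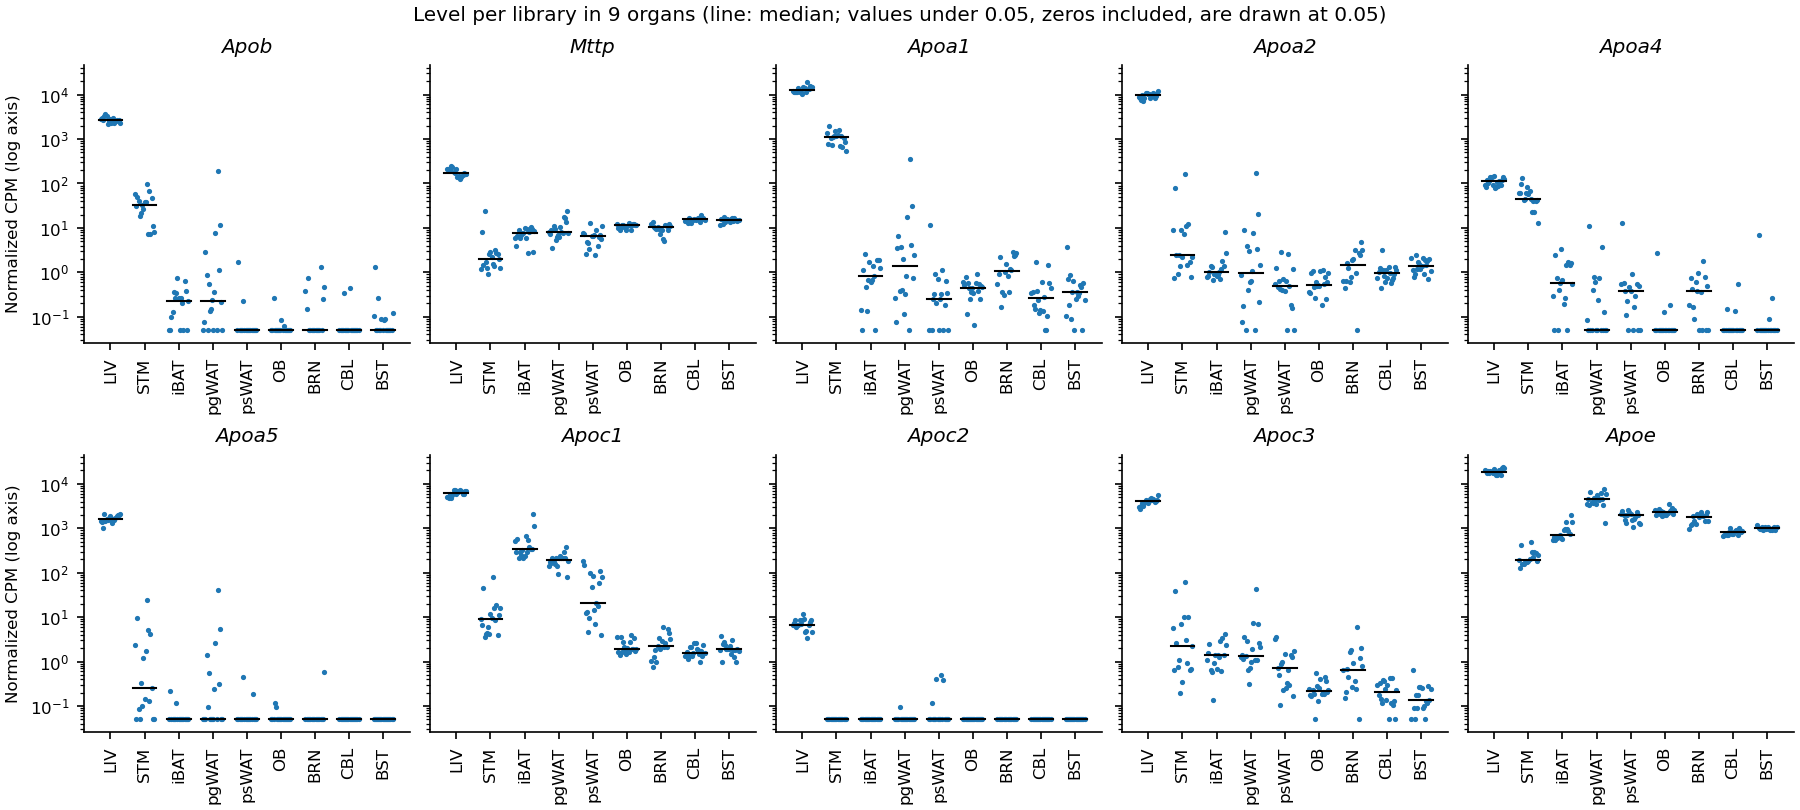
Normalized CPM of the 10 genes on a log scale in the retained libraries of 9 organs, with points for libraries, lines for medians, and values under 0.05 drawn at 0.05. Every gene had its highest median in liver, Apoe was abundant in all organs, and Apoa1 and Apoa4 had stomach in second place.

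Apoe ran from a median of 18970 normalized CPM in liver through 4487 in pgWAT, 2323 in olfactory bulb, 1944 in psWAT, 1822 in brain, 1005 in brainstem, 825 in cerebellum and 704 in brown fat to 192.6 in stomach. Of the 36 organ pairs 35 differed for Apoe, and the neighbours that did not were psWAT and brain (adjusted p = 0.736, log2 difference -0.05). In that fit, scaled over all libraries, brown fat came out above cerebellum by 0.85 log2 units, the reverse of the order of their within-organ medians. Mttp had a median of 175 in liver, 15.5 in cerebellum, 15.1 in brainstem, 11.5 in olfactory bulb, 10.2 in brain, 7.95 in pgWAT, 7.66 in brown fat, 6.48 in psWAT and 2.05 in stomach. For Mttp 27 of 36 organ pairs differed, and the neighbours cerebellum and brainstem, olfactory bulb and brain, brain and pgWAT, pgWAT and brown fat, and psWAT and stomach did not.

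Apoa1 had a median of 12676 normalized CPM in liver and 1131 in stomach, and at most 1.42 elsewhere. Apoa4, which the small intestine also makes, was closest between those organs, with 113.01 in liver and 45.7 in stomach, a difference of 1.61 log2 units (SE 0.358, adjusted p = 2.54e-05). The organs overlapped for Apoa4, since stomach libraries ran from 13.2 to 129.8 and liver libraries from 79.9 to 145.3. Apob had a median of 2688 in liver and 33.2 in stomach, and Apoc1 had 6355 in liver, 343 in brown fat, 197 in pgWAT, 20.6 in psWAT and 8.99 in stomach, where all these neighbours differed. Apoc1 was at 2.21 or less in the brain organs, and its order among them was not resolved. Apoa2, Apoa5 and Apoc3 had medians of 9589, 1619 and 4127 in liver and of 2.43, 0.257 and 2.30 in stomach, and Apoa5 had no count in any cerebellum or brainstem library.

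In liver, where VLDL is made, Mttp fell and Apoc3, Apoc1 and Apoa5 rose during the fast. All 10 passed the filter on low counts there, and 5 of them (Mttp, Apoc3, Apoc1, Apoa5 and Apob) changed over the 6 time points in a joint edgeR quasi-likelihood test, against 16% of the 14023 genes tested. At an unadjusted p under 0.05 the count was 9 of 10, against 4941 of 14023 genes. In the late fast, the mean of 18 and 22 h against 0 h, Apoc3, Apoa5 and Apoc1 rose and Mttp fell, 4 of 10 against 10.6% of all genes. By direction this was 3 higher against 5.19% and 1 lower against 5.39%. The median late log2 change of the 10 genes was 0.26, against 0.01 over all genes. With a late change over 1 log2 unit also required, 0 of the 10 genes passed with edgeR, against 1.66% of all genes. Without that limit, 6 had an unadjusted late p under 0.05, against 3740 of 14023 genes. All these contrasts share the same 3 livers at 0 h. Of these, replicates 1 and 2, given as separate mice, were closely alike, with a chi-square per gene of 2.133 between their counts, against 52.75 and 54.58 with replicate 3 and 9.654 to 90.3 for pairs at the other times in liver, and what this does to the spread at 0 h was not tested. With either of them left out the late calls of Mttp, Apoc3 and Apoa5 remained and that of Apoc1 did not. Bulk RNA cannot tell fewer cells of a type from less RNA per cell.

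**Figure D2:**
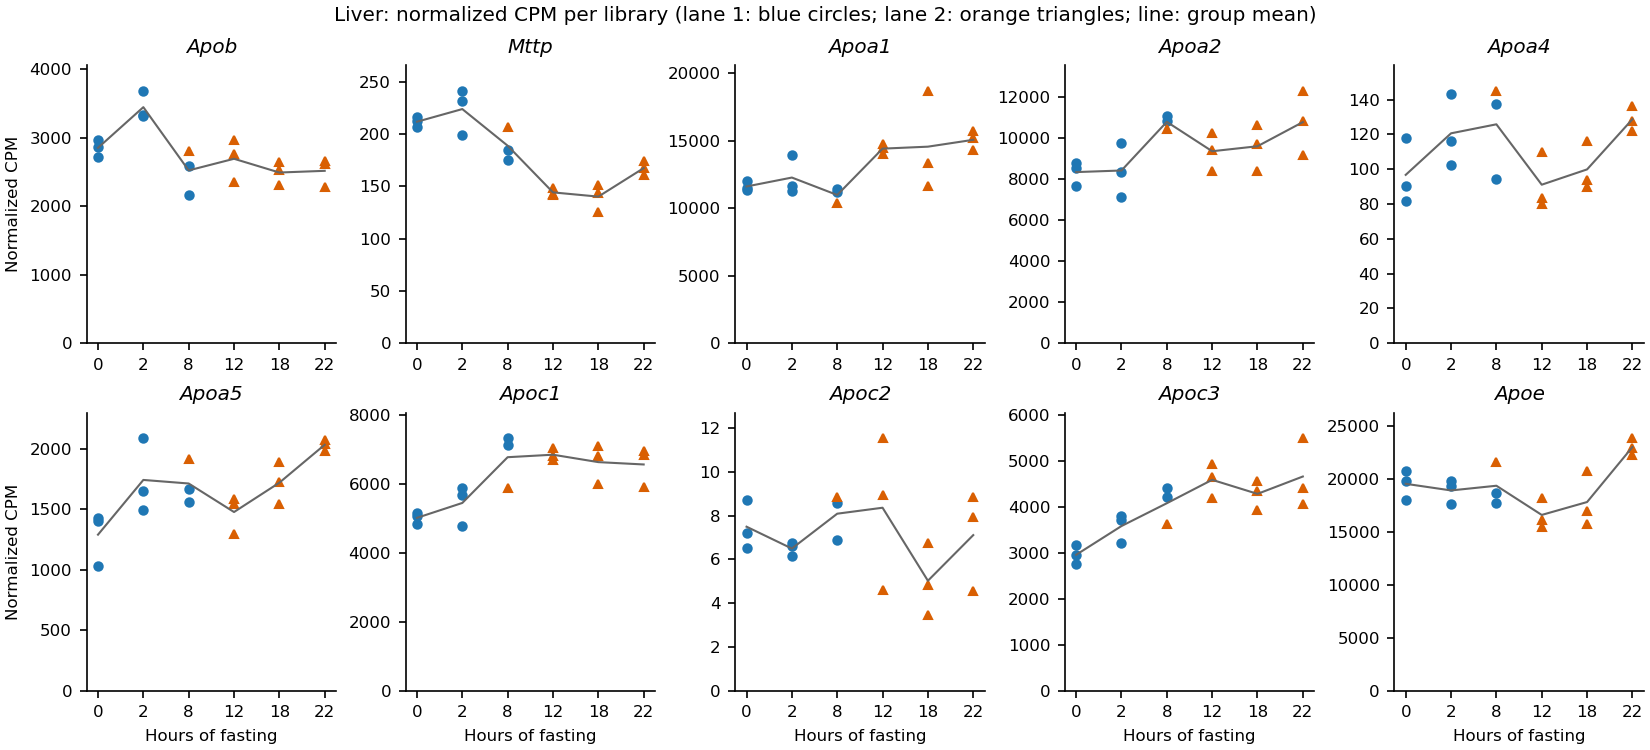
Normalized CPM in liver against hours of fasting for the 10 genes, with a point for each of the 18 mice (circles and triangles for the sequencing lanes) and a line through the mean of each time point. Mttp dropped below every 0 h value from 12 h on, while Apoc3 stood above every 0 h value from 2 h on.

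By single time points, 0 of 10 genes passed at 2 h (3 at an unadjusted p under 0.05, 0 with DESeq2) against 0.143% of all genes (1426 of 14023 at an unadjusted p under 0.05). At 8 h 0 passed with edgeR (5 at an unadjusted p under 0.05) against 0.471% (2354 of all genes at an unadjusted p under 0.05), and DESeq2 called Apoc1 and Apoc3. At 12 h 3 passed (Apoc3, Apoc1, Mttp) against 11.9%, at 18 h the same 3 against 9.97%, and at 22 h 2 passed (Apoc3 and Apoa5) against 4.15%. The comparisons at 12 and 18 h thus named Mttp and a pair of ApoC genes, and Apoa5 passed at 22 h.

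Both assembly genes passed the joint test, and Mttp alone of them passed in the late fast against 0 h. Apob encodes the protein on which each VLDL particle is built, and its livers held 2869, 2962 and 2719 normalized CPM at 0 h, 3332, 3686 and 3312 at 2 h, 2169, 2587 and 2806 at 8 h, 2348, 2754 and 2969 at 12 h, 2302, 2529 and 2638 at 18 h, and 2612, 2658 and 2275 at 22 h. All 3 livers at 2 h lay above every 0 h liver, and all 6 at 18 and 22 h lay below every 0 h liver. The group mean was 2850.2 ± 122.5 (SD, n = 3) at 0 h, 3443 ± 210.4 at 2 h and 2515 ± 209 at 22 h. The joint test gave an adjusted p of 0.0472, and neither 2 h (log2 change 0.27, adjusted p = 0.454, 3 of 3 livers higher) nor the late fast (-0.19, adjusted p = 0.276, 6 of 6 lower) passed alone.

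Mttp, which encodes the large subunit of the lipid transfer protein, had 207, 216 and 212 normalized CPM at 0 h, 199, 242 and 231.4 at 2 h, 184, 175 and 207 at 8 h, 142.01, 142.8 and 147.97 at 12 h, 125.6, 143.3 and 151.7 at 18 h, and 174, 167.7 and 160.7 at 22 h. From 12 h on all 9 livers lay below every 0 h liver, whereas those at 2 and 8 h overlapped them. The mean went from 212 ± 4.64 (SD, n = 3) at 0 h to 144.3 ± 3.25 at 12 h and 167.4 ± 6.62 at 22 h. Mttp had the smallest joint p of the 10 genes (adjusted p = 0.00160). It fell by 0.55 log2 units at 12 h (SE 0.111, adjusted p = 0.00379, 3 of 3 livers lower), by 0.60 at 18 h (adjusted p = 0.00244, 3 of 3) and by 0.47 in the late fast (SE 0.0940, adjusted p = 0.00359, 6 of 6), while the 22 h change of -0.34 did not pass (adjusted p = 0.0829, 3 of 3). Described by the Pearson correlation of log2 levels over the 18 livers, the genes most like Mttp were Gm5096 (r = 0.948), Gm7816 (0.929), Hsd17b12 (0.928), Akirin1 (0.927) and Pgam1-ps2 (0.921).

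Among the ApoA genes 1 passed. Apoa5, whose protein promotes the lipolysis of circulating triglyceride, stood at 1429, 1407 and 1036 normalized CPM at 0 h, 2088, 1491 and 1649 at 2 h, 1558, 1669 and 1913 at 8 h, 1547, 1297 and 1589 at 12 h, 1542, 1724 and 1893 at 18 h, and 1981, 2043 and 2076 at 22 h. Every liver at 2, 8, 18 and 22 h lay above every 0 h liver, and at 12 h 2 of 3 did. Its late rise was 0.54 log2 units (SE 0.130, adjusted p = 0.0129, 6 of 6 livers higher), its 22 h rise 0.66 (adjusted p = 0.0179, 3 of 3), and its joint adjusted p 0.0398. Without 0 h replicate 3, the lowest of its livers, the late change was 0.40 and did not pass (adjusted p = 0.0801).

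Apoa1, the main protein of high-density lipoprotein, read 12013, 11339 and 11518 normalized CPM at 0 h, 14801.5, 14031 and 14454 at 12 h, 11648, 18738 and 13339.6 at 18 h, and 15703, 14337 and 15209 at 22 h. The 12 h and 22 h livers lay above every 0 h liver, and the 18 h livers overlapped them, whereas 2 of 3 livers at 8 h and 1 of 3 at 2 h lay below every 0 h liver, and 1 at 2 h lay above. The late difference of 0.35 log2 units did not pass (adjusted p = 0.0745, 5 of 6 livers higher), nor did the joint test (adjusted p = 0.0704), but without 18 h replicate 1 the late adjusted p was 0.0251 and the joint one 0.0226, and without 18 h replicate 2 the joint one was 0.0320. Apoa2, another protein of the same particles, ran from 7141 to 12337 over all livers (joint adjusted p = 0.136), with every 8 h and 22 h liver above every 0 h liver, and at 2 h 1 above and 1 below. Apoa4 ran from 79.9 to 145.3 (joint adjusted p = 0.110, or 0.0448 without 8 h replicate 2), with every 22 h liver, at 122.1, 136.5 and 128, above those at 0 h, and 1 of 3 livers at 12 h below them. The late differences of Apoa2 and Apoa4, 0.29 and 0.23, did not pass either (adjusted p = 0.137 and 0.362).

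Of the ApoC genes Apoc3 and Apoc1 rose. Apoc3, whose protein restrains lipoprotein lipase and remnant uptake, had 2943, 2763 and 3161 normalized CPM at 0 h, 3715, 3221 and 3806 at 2 h, 4399.7, 4203 and 3625 at 8 h, 4185, 4647 and 4923 at 12 h, 4349.7, 4567 and 3923 at 18 h, and 4069, 4410.4 and 5492 at 22 h. All 15 fasted livers lay above all 3 at 0 h. The late rise was 0.59 log2 units (SE 0.116, adjusted p = 0.00305, 6 of 6 livers higher), with 0.63 at 12 h (adjusted p = 0.00467), 0.53 at 18 h (0.0144) and 0.66 at 22 h (0.0102), each in 3 of 3 livers. The joint adjusted p was 0.0129, and 0.0526 without 0 h replicate 2.

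Apoc1 encodes a small protein that hinders remnant uptake and lipase activity. It read 5166, 5071 and 4841 normalized CPM at 0 h, 5889.6, 4788 and 5698 at 2 h, 7142, 7343 and 5879 at 8 h, 6822, 6707 and 7053 at 12 h, 7099, 6831 and 6004 at 18 h, and 5928, 6845 and 6957 at 22 h. From 8 h on all 12 livers lay above every 0 h liver. Its late rise was 0.40 log2 units (SE 0.108, adjusted p = 0.0238, 6 of 6 livers higher), it passed at 12 h (0.45, adjusted p = 0.0219, 3 of 3) and 18 h (0.40, adjusted p = 0.0408, 3 of 3), and its joint adjusted p was 0.0393. The late call ended without 0 h replicate 1, 2 or 3 or 22 h replicate 2 (adjusted p = 0.0697, 0.0851, 0.0768 and 0.0517). Apoc2, the lipase cofactor, had 3.48 to 11.5 normalized CPM in the few bases not shared with its neighbour, and its joint test did not pass (adjusted p = 0.359).

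Apoe, whose protein binds the receptors that clear remnants, had 20756, 19819 and 17953 normalized CPM at 0 h, 18183, 15425 and 16120 at 12 h, 16969.6, 20689.5 and 15715 at 18 h, and 22271, 23816 and 22838 at 22 h. The 22 h livers lay above every 0 h liver, while 2 of 3 livers at 12 h, 2 of 3 at 18 h and 1 of 3 at 2 h lay below, and at 8 h 1 lay above and 1 below. The late change was 0.05 log2 units (adjusted p = 0.808, 3 of 6 livers above every 0 h liver) and the joint test did not pass (adjusted p = 0.0962, or 0.0441 without 18 h replicate 2).

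Sequencing lane limits all of this. The 8 libraries of 0 h, 2 h and 8 h replicates 1 and 2 ran in 1 lane and the other 10 in another, so only the 8 h group, 2 livers against 1, links them, and lane and late fasting cannot otherwise be told apart. With lane as a covariate 0 of 10 genes passed in the joint test (7 at an unadjusted p under 0.05) or in the late fast (3 at an unadjusted p under 0.05), where the genes passing over the whole table numbered 294 and 21. Directions held for the 4 genes called in the late fast, with Apoc3 at 0.84 (adjusted p = 0.0940), Apoc1 at 0.70 (0.122), Mttp at -0.67 (0.0967) and Apoa5 at 0.29 (0.633), whereas Apoa4 turned to -0.10 and Apoe to -0.19. At 12 h Apoc3 (0.88, adjusted p = 0.0410) and Mttp (-0.76, adjusted p = 0.0342) still passed, against 4.21% of all genes in that fit, and Apoc1 did not (0.75, adjusted p = 0.0512). The names of the liver libraries hold a running number, whose leading digits differ between all livers at 12 h and all at 0 h. The numbers run on from the one to the other, and the names do not say that these are separate batches.

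Within the shared lane, the late fast was compared with 12 h. Here 0 of 10 genes passed with edgeR (2 at an unadjusted p under 0.05) and 0 with DESeq2, against 0.00713% of all genes with edgeR (2402 of 14023 at an unadjusted p under 0.05). Those 2 were Apoa5, with a difference of 0.34 log2 units (adjusted p = 0.192, 5 of 6 late livers above every 12 h liver), and Apoe, with 0.29 (adjusted p = 0.195, 4 of 6 late livers above every 12 h liver). Mttp, Apoc3 and Apoc1 differed by 0.09, -0.04 and -0.05 in that comparison.

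The calls also depended on single livers. With each of the 18 livers left out in turn, Mttp kept its joint call in 18 refits, Apoc3 in 17, Apoc1 and Apoa5 in 7 each and Apob in 5. The adjusted p of Apoc1 then reached 0.0946, that of Apoa5 0.0844 and that of Apob 0.184, the last without 2 h replicate 2, and all of these calls ended without 0 h replicate 2. In the late fast Apoc3 and Mttp passed in 18 of 18 refits, Apoa5 in 17 and Apoc1 in 14.

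Among other genes of VLDL assembly and secretion more fell than rose in the late fast. Of 17 such genes in liver 9 passed the joint test, against 16% of all genes, and in the late fast 2 rose and 4 fell, against 5.19% and 5.39% of all genes, with a median of -0.27 log2 units. P4hb, which encodes the smaller subunit of the MTTP complex, went from 1502 ± 156.03 (SD, n = 3) normalized CPM at 0 h to 1006 ± 168.7 (n = 6) and fell by 0.59 (adjusted p = 0.00175, 6 of 6 livers lower). Sar1b, a coat protein of the vesicles that carry large particles to the Golgi, fell by 0.44 (adjusted p = 0.0233, 5 of 6), Dgat2, which makes triglyceride, by 0.39 (adjusted p = 0.0218, 5 of 6), and the lipid hydrolase Aadac by 0.34 (adjusted p = 0.0222, 6 of 6). Soat2, which esterifies cholesterol, rose by 0.62 (adjusted p = 0.0335, 6 of 6) and Dgat1 by 0.38 (adjusted p = 0.0408, 6 of 6). At 12 h, where 11.9% of all genes passed, 1 rose and 5 fell. Dgat2 fell by 0.68 (adjusted p = 0.00219), P4hb by 0.58 (0.00569), Sar1b by 0.59 (0.0112), the cargo receptor Surf4 by 0.43 (0.0209) and Aadac by 0.39 (0.0223), while Dgat1 rose by 0.44 (0.0333), each in 3 of 3 livers. Ces1d and Sort1 passed in the joint test alone (adjusted p = 0.0184 and 0.0223). When lane was a covariate 0 of the 17 passed in the joint test (11 at an unadjusted p under 0.05), against 2.1% of all genes, or in the late fast (8), against 0.15%. At 12 h, where 4.21% of all genes passed, Dgat2 (-0.83, adjusted p = 0.0373) and Sar1b (-0.91, adjusted p = 0.0386) did.

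Among 12 other apolipoproteins and lipoprotein proteins in plasma, 11 were tested and 5 passed the joint test, against 16% of all genes. In the late fast 1 rose and 1 fell, against 5.19% and 5.39%, with a median of -0.08. Apoc4, which lies between Apoc2 and Apoc1, went from 654 ± 36.7 (SD, n = 3) to 1065 ± 86.8 normalized CPM (n = 6) and rose by 0.70 (adjusted p = 0.00142, 6 of 6 livers higher), and the esterase Pon1 fell by 0.40 (adjusted p = 0.0367, 4 of 6 livers below every 0 h liver). At 12 h Apoh fell by 1.09 (adjusted p = 0.000983, 3 of 3) and Clu by 0.88 (adjusted p = 0.00684, 3 of 3). Pltp, the phospholipid transfer protein, rose by 1.13 at 8 h (adjusted p = 0.0283, 3 of 3). With lane as a covariate Pltp and Apoh kept their joint calls (adjusted p = 0.00555 and 0.0293), against 2.1% of all genes. Apoc4 (1.19, adjusted p = 0.0141), Apoh (-1.55) and Clu (-1.36) passed at 12 h, against 4.21%. In the late fast 0 of 11 passed (4 at an unadjusted p under 0.05), against 0.15%.

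Of 15 lipoprotein receptors and lipases, 14 were tested, 2 passed the joint test, against 16% of all genes, and 3 fell in the late fast, against 5.39%, with a median of -0.08. Among these were Sdc1, a proteoglycan that binds remnants (-0.42, adjusted p = 0.0172, 5 of 6 livers lower), and the cholesterol exporter Abca1 (-0.43, adjusted p = 0.0349, 5 of 6). Of 22 transcriptional regulators 6 passed the joint test, against 16% of all genes, and 4 the late fast, against 10.6%. In the late fast Nr1d2 rose by 0.52 (adjusted p = 0.0420, 5 of 6) while Nr5a2 (-0.51, adjusted p = 0.0170, 5 of 6), Srebf2 (-0.48, adjusted p = 0.0254, 6 of 6) and Nr2f2 (-0.44, adjusted p = 0.0367, 6 of 6) fell, with a list median of 0.14. Foxa2 rose at 12 h (1.37, adjusted p = 0.0231, 3 of 3) and Ppargc1a at 18 h (1.38, adjusted p = 0.0124, 3 of 3). Mlxipl rose at 12 h (0.54, adjusted p = 0.0475, 3 of 3). When lane was a covariate the receptors and lipases had 0 calls and the regulators 0 in the joint test (3 and 11 at an unadjusted p under 0.05), in the late fast (1 and 1), at 12 h (2 and 3) and at 18 h (2 and 2), so that the calls of Foxa2, Mlxipl and Ppargc1a ended too. The shares of all genes passing in those tests were 2.1%, 0.15%, 4.21% and 0.592%.

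Most of the genes lie in clusters, and in each cluster some genes passed the late test in liver and others did not. On chromosome 9 (GRCm38) Apoa1 (chr9:46228580-46230466, plus strand), Apoc3 (chr9:46232933-46235636, minus), Apoa4 (chr9:46240696-46243459, plus) and Apoa5 (chr9:46268633-46271919, plus) are neighbours, and of these Apoc3 and Apoa5 rose late in the liver. On chromosome 7 Apoc2 (chr7:19671579-19677941), Apoc4 (chr7:19678083-19681479), Apoc1 (chr7:19689481-19692660) and Apoe (chr7:19696109-19699188) lie on the minus strand, and of these Apoc4 and Apoc1 rose. Apoa2 (chr1:171225054-171226379, plus), Apob (chr12:7977648-8016835, plus) and Mttp (chr3:138089854-138144968, minus) stand apart from them.

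**Figure D3:**
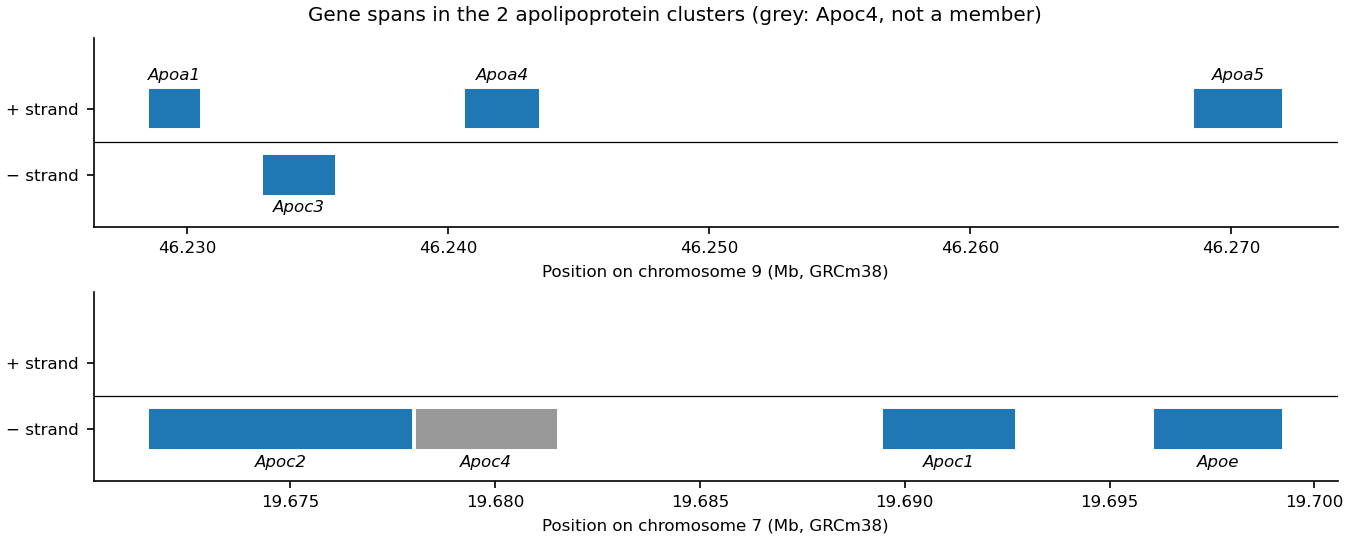
Gene spans on chromosomes 9 and 7 against position in Mb (GRCm38), with a box per gene above the line for the plus strand and under it for the minus strand. Apoc3 lies opposite to its neighbours on chromosome 9, and Apoc4, drawn in grey, lies between Apoc2 and Apoc1.

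Promoter windows from RefSeq (GRCm38.p6) were present for 8 of the 10 genes and absent for Apoc1 and Apoc3. They numbered 12, as some genes have several starts. In the 250 bases before the start, read on both strands, TATAAA occurred in 5 of the 12 windows (of Apoa2, Apoa5, Apob and Apoe) against 12.4% of 32851 windows, AGGTCA in 2 (Apoa2 and Apoc2) against 14.0%, TGTTTAC in 1 (Apoa2) against 3.17%, and CAAAGTCCA in 0 against 0.384%. The windows of Apoa5 overlap and hold the same TATAAA, which is thus counted more than once. By gene, TATAAA occurred in 4 of the 8. The 80 bases before a start are shown for Apob (chr12:7977597-7977676, plus strand) and Apoa5 (chr9:46268528-46268607, plus strand), as these genes changed in the liver and carry TATAAA there. Capitals mark TATAAA, which begins 60 and 31 bases before the RefSeq starts used. The Gencode span of Apob starts 29 bases earlier, so that its window reaches into the span, and that of Apoa5 starts 25 bases later. TATAAA begins 31 and 56 bases before those Gencode starts. Apoa5 has another RefSeq start, at chr9:46268633, which is the Gencode start. A match is a description of the letters alone.
Apob: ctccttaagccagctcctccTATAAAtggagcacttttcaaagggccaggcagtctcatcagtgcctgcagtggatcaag
Apoa5: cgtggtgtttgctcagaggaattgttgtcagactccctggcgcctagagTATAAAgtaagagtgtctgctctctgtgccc

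Outside the liver, the late calls were Apoe (higher in brown fat and brain), Apoa2 (higher in brown fat) and Apoa4 (lower in stomach). Each of these calls ended in some alternative given below, and the calls were not far from the share of all genes. Of 46 gene and organ pairs past the filter, 3 passed the joint test (Apoe, Apoc1 and Apoa2 in brown fat), against 6.41% of all such pairs over these organs. In the late fast 4 passed, against 5.99%. In brown fat 3 of 7 genes passed jointly against 29% of all genes, and 2 of 7 in the late fast against 20.9%. In stomach 0 of 9 passed the joint edgeR test (5 at an unadjusted p under 0.05, 5 with DESeq2) against 6.55% (3859 of 16281 genes at an unadjusted p under 0.05), and 1 the late fast against 15.3%. In brain 0 of 6 passed jointly with edgeR (3 at an unadjusted p under 0.05, 2 with DESeq2) against 0.00597% (2779 of 16749 genes at an unadjusted p under 0.05), and 1 the late fast against 11.2%.

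Apoe, which macrophages and adipocytes also make, stood in brown fat at 559, 631 and 557.5 normalized CPM at 0 h, 621, 627 and 652 at 2 h, 704, 603 and 572 at 8 h, 906, 964 and 1360.5 at 12 h, 942, 889 and 752 at 18 h, and 2014 and 1368 at 22 h. Every library from 12 h on lay above every 0 h library. Its late rise was 1.05 log2 units (SE 0.177, adjusted p = 0.00186, 5 of 5 libraries higher) and its 22 h rise 1.54 (SE 0.209, adjusted p = 0.000212, 2 of 2), where 41% of all genes passed. The joint adjusted p was 0.000386, and with an offset for exon length the late rise was 0.77 (adjusted p = 0.00788).

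Apoc1 in brown fat was set apart by the 22 h libraries. It had 517, 299 and 563 normalized CPM at 0 h, 216.6, 293 and 249 at 2 h, 322, 219 and 232.9 at 8 h, 670.7, 286 and 549 at 12 h, 382, 346 and 343 at 18 h, and 2132 and 1112 at 22 h. Both 22 h libraries and 1 of 3 at 12 h lay above every 0 h library, while 3 of 3 at 2 h, 2 of 3 at 8 h and 1 of 3 at 12 h lay below. Its 22 h rise was 1.82 log2 units (SE 0.332, adjusted p = 0.000813, 2 of 2 libraries higher) and its joint adjusted p 0.000308. The late difference of 0.73 did not pass (adjusted p = 0.0675, 2 of 5 above every 0 h library) and did without 22 h replicate 3 (0.93, adjusted p = 0.0212). With each library left out in turn it ran from 0.45 to 0.93, with an adjusted p of up to 0.312. Apoa2 was near its limit of counting, at 0.668 to 1.79 normalized CPM through 18 h and 7.95 and 2.67 at 22 h. Its late rise of 1.63 (SE 0.439, adjusted p = 0.0177, 5 of 5 libraries higher) ended with the offset for exon length (1.03, adjusted p = 0.117) and without 0 h replicate 1, 0 h replicate 2 or 22 h replicate 2 (adjusted p = 0.0510, 0.0902 and 0.0696).

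These 22 h libraries are the ones that stand apart by transcript length, held 3156101 and 8836608 counts, and moved the median of all genes by -0.11 log2 units. By its name 22 h replicate 2 belongs to another library series than the other retained brown fat libraries. Both 22 h libraries ran in lanes that no other retained brown fat library used. At 22 h the median change was 1.08 for the 1154 shortest genes and -0.74 for the 5554 longest. The 10 macrophage genes, of which C1qa was the most abundant at 22 h, summed to 20.2, 44.1 and 90.01 CPM at 0 h and 145.7 and 98.6 at 22 h. The part of the macrophage genes, of transcript length and of lane in the rises of Apoe, Apoc1 and Apoa2 was not tested. With 18 h alone in place of both times, 0 of 7 genes passed with edgeR (1 at an unadjusted p under 0.05, Apoe at 0.56). Of all 14529 genes 0.275% passed, and 1292 had an unadjusted p under 0.05.

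In brain, Apoe is chiefly a product of astrocytes. It had 976, 1174 and 1273 normalized CPM at 0 h, 1846, 1449 and 1282 at 2 h, 2122 and 1952 at 8 h, 1798, 2359.7 and 1954 at 12 h, 1916 and 1464 at 18 h, and 2018, 2364 and 1424 at 22 h. All 13 later libraries lay above all 3 at 0 h. The late rise was 0.66 log2 units (SE 0.170, adjusted p = 0.0219, 5 of 5 libraries higher), and the joint test did not pass (adjusted p = 0.122). The rise ended with the offset for exon length (0.49, adjusted p = 0.0679), with the left-out libraries put back (0.63, adjusted p = 0.313) and with library totals (0.47, adjusted p = 0.05003, where the median of all genes moved by -0.26 against -0.09). It also ended without 0 h replicate 1, 2 or 3 (adjusted p = 0.134, 0.0663 and 0.0574), 18 h replicate 2 (0.0835) or 22 h replicate 1 or 2 (0.0512 and 0.0519). The excess of short over long transcripts was -0.09 to 0.08 in the 0 h libraries and 0.19 to 1.33 in the later ones, while the 7 astrocyte genes, led by Slc1a2, summed to 2741, 3011 and 2975 CPM at 0 h and 2275, 2209 and 2893 at 22 h. Over the retained brain libraries that astrocyte sum ran from 2193.4 to 3171.3 CPM, both ends in libraries of neither time. The part of transcript length or of astrocyte genes in the rise was not tested. By their names, all 3 brain libraries of 0 h belong to a different series from all 5 of 18 and 22 h, and the 2 h and 12 h groups hold both. In a fit with a term for series, an alternative added once the data had been seen, the late difference of Apoe was 0.44 (SE 0.255, adjusted p = 0.559), and 0 of 6 genes passed with edgeR in the late fast (0 at an unadjusted p under 0.05) or jointly (1), and 0 of all 16749 genes did in either test. In the 0 h series, 2 h replicate 3 and 12 h replicate 3 held 1282 and 1954 normalized CPM of Apoe.

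In stomach, Apoa1 and Apoa4 stood far above liver levels scaled by hepatocyte markers. With each liver level scaled by the hepatocyte marker sum of the stomach library, measured CPM was over 3 times the scaled value in 17 of 17 libraries for Apoa1 and Apoa4, in 15 for Apoe and Mttp, 13 for Apob, 7 for Apoc1, 2 for Apoc3, 1 for Apoa2 and 0 for Apoa5. Scaled by albumin alone, the counts were 17 for Apoa1 and Apoa4, 16 for Apoe, 15 for Mttp, 13 for Apob, 10 for Apoc1 and Apoc3, 7 for Apoa2 and 2 for Apoa5, so those of Apoa2, Apoc1 and Apoc3 depended on the marker used. The 9 enterocyte genes summed to a median of 298 CPM there, led by Anpep at 158, with Vil1 at 32.2 and Fabp2 at 22.6, while Si had a median of 0 and Lct of 0.939.

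**Figure D4:**
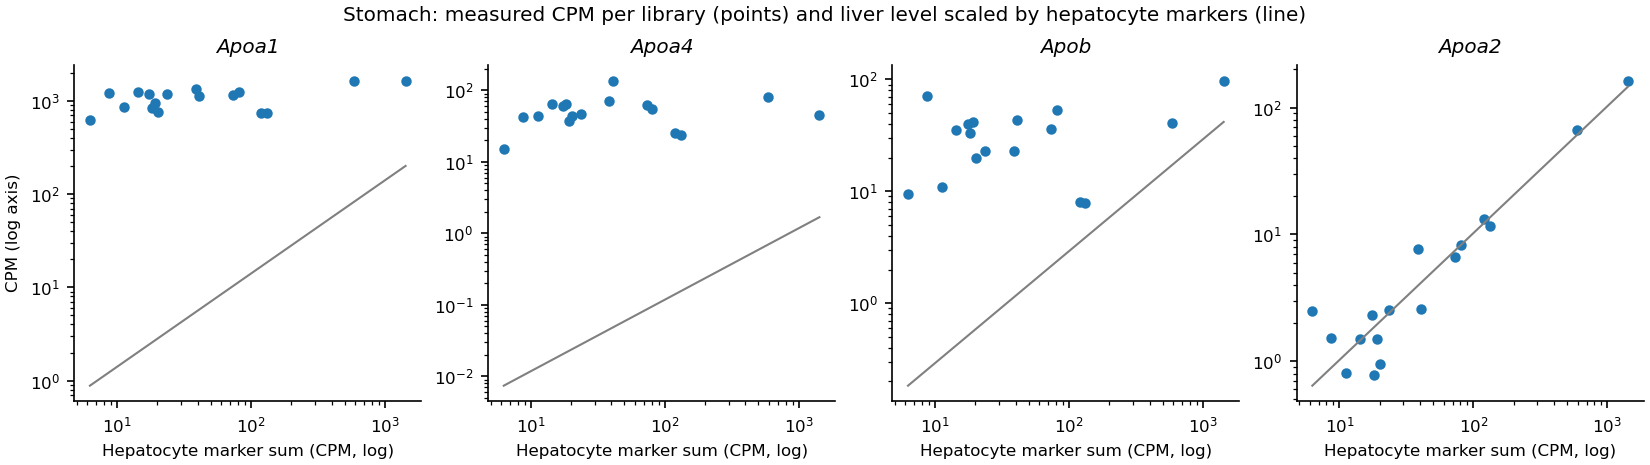
Measured CPM of Apoa1, Apoa4, Apob and Apoa2 in the 17 stomach libraries (points) against the summed CPM of hepatocyte markers, both on log axes, with the liver level scaled by those markers as a line. Apoa1 and Apoa4 lie above the line in every library, and Apoa2 lies nearer to it.

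Apoa4 in stomach had 59.8, 62.4 and 95.5 normalized CPM at 0 h, 129.8, 42.1 and 45.2 at 2 h, 59.6, 83.3 and 58.1 at 8 h, 68.6 and 45.7 at 12 h, 22.3, 41.1 and 23.2 at 18 h, and 40.9, 43.6 and 13.2 at 22 h. All 6 late libraries lay below all 3 at 0 h. It fell by 1.24 log2 units in the late fast (SE 0.395, adjusted p = 0.0474, 6 of 6 libraries lower). Apoa1 had a late difference of -0.73 (adjusted p = 0.0910, 3 of 6 libraries below every 0 h library), which passed without 0 h replicate 2 (-1.01, adjusted p = 0.0213) or 18 h replicate 2 (-0.88, adjusted p = 0.0377). With each library left out in turn it ran from -1.01 to -0.38, with an adjusted p of up to 0.479. Without 18 h replicate 2, Apob passed too (-1.86, adjusted p = 0.0248), and without 0 h replicate 2 Apoa2 (-3.62, adjusted p = 0.0337). With no library left out they did not pass (-0.92 and -3.04, adjusted p = 0.387 and 0.0916). With each library left out in turn, Apob ran from -1.86 to -0.69 (adjusted p up to 0.610) and Apoa2 from -3.62 to -0.39 (up to 0.884).

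The fall of Apoa4 in stomach was close to the threshold, and stomach libraries were split between lanes as those of liver were, so lane and the late fast cannot otherwise be told apart there either. It ended without 0 h replicate 3 and 12 h replicate 2, the libraries high in hepatocyte markers (-0.99, adjusted p = 0.247), with lane as a covariate (-0.95, adjusted p = 0.823), with library totals (-1.09, adjusted p = 0.0555, where the median of all genes moved by 0.15), without the filter (adjusted p = 0.107) and with the offset for exon length (adjusted p = 0.0583). It also ended without 0 h replicate 1, 2 or 3 (adjusted p = 0.0767, 0.0574 and 0.233), 18 h replicate 1 or 3 (0.0929 and 0.0942) or 22 h replicate 3 (0.0587). The enterocyte sum was 324, 392 and 319 CPM at 0 h and between 157.2 and 225 in the 6 late libraries, and its part in the fall was not tested.

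In white fat Apoe and, in pgWAT, Apoc1 were the abundant genes, and 0 genes passed. In pgWAT 0 of 8 passed with edgeR jointly (5 at an unadjusted p under 0.05, 0 with DESeq2) against 0% of all genes and 0 in the late fast (5, and Apoa2 with DESeq2) against 0.00609%. Of all 16412 genes there, 1694 had an unadjusted p under 0.05 jointly and 3567 in the late fast. The 18 h replicate 2 library, which carries liver transcripts, held 353 normalized CPM of Apoa1, 186.6 of Apob and 169.9 of Apoa2. In psWAT 0 of 4 passed with edgeR jointly (1 at an unadjusted p under 0.05, and Apoc1 and Apoe with DESeq2) against 0% (3190 of 16714 genes at an unadjusted p under 0.05), and 0 in the late fast (0, and 0 with DESeq2) against 0%. Apoc1 there ran from 181, 152.8 and 12.3 normalized CPM at 0 h to 4.03 and 79.2 at 22 h, a spread within groups as wide as that between them. The 5 white adipocyte genes summed to 13980, 11718 and 1256 CPM in those 0 h libraries and to 264 and 7016 in those of 22 h. Over the retained psWAT libraries that sum ran from 264 to 15663 CPM, and its part in the levels of Apoc1 was not tested.

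In the remaining brain organs 0 of 4 genes passed with edgeR in each. The shares of all genes passing jointly and in the late fast were 15.3% and 1.95% in olfactory bulb and 2.99% and 0.344% in cerebellum. In brainstem they were 0.107% and 0.0596%. At an unadjusted p under 0.05 the counts were 0 in each of these tests but the late fast of cerebellum. There the count was 1 (Apoe), against 2402 of 15976 genes. DESeq2 called Apoe jointly in olfactory bulb and 0 genes in the other tests.

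Liver differed from other organs in the late response of 3 genes, by a test of the difference itself that did not pair the organs of a mouse. Of the 46 pairs 7 passed. Mttp fell by 0.47 in liver and had late values of 0.47 in brown fat, 0.10 in olfactory bulb, 0.20 in cerebellum and 0.06 in brainstem, and the differences were -0.95 (SE 0.323, adjusted p = 0.0462), -0.58 (SE 0.141, adjusted p = 0.0122), -0.64 (SE 0.134, adjusted p = 0.00300) and -0.52 (SE 0.141, adjusted p = 0.0221), with 6 of 6 late livers below every 0 h liver. Apoe differed from brown fat by -0.98 (SE 0.213, adjusted p = 0.00440, 5 of 5 late libraries higher in brown fat). Apoa2 differed from brown fat by -1.25 (SE 0.327, adjusted p = 0.0124, 5 of 5) and from brain by -1.69 (SE 0.538, adjusted p = 0.0443, 4 of 5). Chosen after seeing the data, a fit with mouse as a block kept 4 of the 7, namely Mttp against olfactory bulb (-0.59, adjusted p = 0.0356), cerebellum (-0.63, adjusted p = 0.00760) and brainstem (-0.53, adjusted p = 0.0320), and Apoe against brown fat (-0.96, adjusted p = 0.0315), where 2.46%, 6.01%, 3.24% and 9.42% of all genes passed. It did not keep Mttp against brown fat (-0.93, adjusted p = 0.105), Apoa2 against brown fat (-1.18, adjusted p = 0.0598) or Apoa2 against brain (-1.67, adjusted p = 0.193). Lane bears on these differences too, since the late livers ran in another lane than those of 0 h, while cerebellum and brainstem each ran in 1 lane, and olfactory bulb was split as liver was. With lane as a covariate within liver, stomach and olfactory bulb, also chosen after seeing the data, 2 of the 46 pairs passed (12 at an unadjusted p under 0.05), Mttp against cerebellum (-0.84, adjusted p = 0.0157, against 3.98% of all genes) and brainstem (-0.74, adjusted p = 0.0406, against 2.81%). Mttp against olfactory bulb (-1.01, adjusted p = 0.0941) and brown fat (-1.14, adjusted p = 0.197), Apoe against brown fat (-1.20, adjusted p = 0.0682), and Apoa2 against brown fat (-1.16, adjusted p = 0.153) and brain (-1.60, adjusted p = 0.279) did not.

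Single libraries also decided some of these differences. With each 0, 18 and 22 h library left out in turn, Mttp against cerebellum passed in 18 of 18 refits and Apoe against brown fat in 17 of 17, while Mttp passed against olfactory bulb in 17 of 18, brainstem in 16 of 18 and brown fat in 4 of 17. The cerebellum libraries held 6487419 to 22071004 counts, and those of 0 h were the deepest. The part of depth in the difference of Mttp from cerebellum was not tested. Mttp alone did not pass in brown fat (adjusted p = 0.351), where its late value ran from -0.06, without 22 h replicate 3, to 0.70. Apoa2 against brown fat passed in 15 of 17, and Apoa2 against brain in 6 of 17. Apoa2 alone did not pass in brain (1.94, adjusted p = 0.134), where libraries held 0 to 4.82 normalized CPM and the 18 h ones 0 and 2.69. Without 18 h replicate 3 its late value in brain was -1.33 and its difference from liver 1.46 (adjusted p = 0.6001). Among all genes 13% differed in this way from brown fat, 5.3% from olfactory bulb, 7.96% from cerebellum, 5.34% from brainstem and 9.13% from brain. With edgeR 0 of 9 genes passed against stomach, 0 of 8 against pgWAT and 0 of 4 against psWAT (5, 6 and 1 at an unadjusted p under 0.05), where 0.582%, 1.96% and 0.00553% of all genes did.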

How the data were processed

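The authors deposited a table of counts per gene for 162 libraries of stranded mRNA sequencing, made by aligning reads with TopHat2 2.1.1 to GRCm38.p5 and counting uniquely aligned reads with HTSeq 0.9.1. Of 53686 genes 15167 had no count in any library. The 5 libraries that the study left out were left out here, and 157 were used, of 3045845 to 27801717 counts. In each organ, genes were kept if their CPM reached that of 10 counts at the median library size in at least 3 libraries. Counts were scaled by TMM and tested with edgeR 4.0.16 (quasi-likelihood F tests, two-sided for contrasts, robust) in R 4.3.3, with p adjusted by Benjamini-Hochberg over all genes kept and calls at an adjusted p under 0.05. The members and gene lists were chosen with earlier results of these data known. All 10 members are named, and the rule for the lists was to name the genes past the threshold in liver, at most 8 per list and comparison by adjusted p. The text names fewer than that rule gives. The likeness ranking uses the member with the smallest joint p in liver. Replicate numbers mark different mice at different times, so the tests used no block. Libraries with the same number had a median r of -0.02 in liver, against 0.02 for others, and of 0.11 in brown fat, against -0.06, and a block by replicate number was run as an alternative. Alternatives were DESeq2 1.42.0, RLE size factors, library totals, no filter, all libraries, lane or replicate number as a term, a log2 change over 1, and each library left out in turn. Others were added after the data were seen: offsets for exon length, stomach and pgWAT without libraries rich in hepatocyte transcripts, 0 and 2 h together as the start, brown fat at 18 h alone, library series as a term in brain, lane as a term for single times and for the lists, and, for differences between organs, mouse as a block, lane as a term and each library left out. Exon lengths and positions came from a later Gencode release for GRCm38 than that of the counts, data were handled with pandas 2.3.3 in Python 3.11.15, and plots drawn with matplotlib 3.10.9.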

Additional observations from a re-analysis of the deposited data

Results flagged for a closer look

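The late change of 3 genes differed between liver and another organ in a test of the difference itself. For Mttp the late log2 change in liver minus that in the other organ was -0.95 in brown fat, -0.58 in olfactory bulb, -0.64 in cerebellum and -0.52 in brainstem. For Apoa2 it was -1.25 in brown fat and -1.69 in brain, and for Apoe it was -0.98 in brown fat. With mouse as a block, chosen after seeing the data, Mttp in brown fat and Apoa2 in brown fat and brain no longer passed. With lane as a covariate, likewise chosen, Mttp in cerebellum and brainstem alone passed, and liver lane and the late fast cannot otherwise be told apart. The difference of Apoa2 in brain turned to 1.46 without brain 18 h replicate 3.

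For some genes, some of the libraries that the study left out held levels above the highest 0 h library of their organ. These libraries were used here only in the alternative with all libraries. Brown fat 22 h replicate 1 held 2021 CPM of Apoc1 (5457 counts, highest 0 h library 579.8 CPM), 1268 of Apoe (3423 counts, 574), 8.15 of Apoc3 (22 counts, 2.61) and 5.18 of Apoa2 (14 counts, 1.04). Subcutaneous fat 22 h replicate 2 held 9.17 CPM of Mttp (27 counts, 6.34) and 3.74 of Apoc3 (11 counts, 3.17). For Apoe, brain 8 h replicate 3 held 1385 CPM (181 counts) and brain 18 h replicate 1 held 1790.3 CPM (501 counts), where the highest 0 h library had 1371 CPM. A single count equalled 7.65 CPM in the former and 3.57 in the latter, so the former lay above by little. Brain 8 h replicate 3 also held 11828.5 CPM of 8 pancreatic acinar genes.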

How the results depend on the processing

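With lane as a covariate the liver genes called by edgeR numbered 0 in the joint test (5 without it) against 2.1% of all genes, 0 in the late fast (4) against 0.15%, 0 at 18 h (3) against 0.592%, 0 at 22 h (2) against 0%, and 2 at 12 h (Apoc3 and Mttp, 3 without it) against 4.21%. Single times with lane were chosen after seeing the data. At an unadjusted p under 0.05 the counts of 0 were 7, 3, 3 and 3. With the replicate block the joint count was 2 (Apoc3 and Mttp) against 11.8%. Requiring a log2 change over 1 left 0 genes in the late fast, against 1.66% of all genes, and 0 at 12, 18 and 22 h. DESeq2 called 2 genes at 8 h against 3.31%, where edgeR called 0, and 4 at 22 h against 6.21%. Leaving out each liver library in turn gave 1 to 6 genes in the joint test, where 9.12 to 20.7% of all genes passed, and 2 to 5 in the late fast, where 4.16 to 11.5% did.

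In the 8 other organs DESeq2 called 14 gene and organ pairs in the joint test, and no filter gave 9, where the main test gave 3. The shares of all genes over these organs were 15.2%, 6.61% and 6.41%. In the late fast DESeq2 gave 8, no filter 7, and leaving out libraries 3 to 6, where the main test gave 4, with shares of 10.9%, 4.33%, 4.16 to 8.85% and 5.99%. Offsets for exon length left 1 (Apoe in brown fat) against 4.58%, and brown fat at 18 h alone left 2 against 3.69%, both alternatives chosen after seeing the data. The cause was not tested in any of these. All 10 genes stayed higher in liver than in each other organ under the 4 alternatives run for that comparison.

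Of the 7 differences between liver and another organ in the late fast, mouse as a block, chosen after seeing the data, left 4 (Mttp against olfactory bulb, cerebellum and brainstem, and Apoe against brown fat). Lane as a covariate, likewise chosen, left 2 (Mttp against cerebellum and brainstem).

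For single genes, alternatives other than leaving out a library kept direction and side of the threshold in 1163 results, moved 33 past it and 45 back, and turned the sign of 17. Leaving out a library did so in 757, 12, 84 and 26.

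The turned values in liver were, with lane, Apoa4 (-0.10) and Apoe (-0.19) in the late fast and, chosen after seeing the data, Apoa5 (-0.0509) and Apoc2 (-0.0221) at 12 h, Apoa4 (-0.28) at 18 h and Apoe (-0.00856) at 22 h. At 8 h they were Apoa1 (0.0183) and Apoe (0.0823) with library totals and Apoe (0.0110) with offsets for exon length. In the late fast of other organs they were, in stomach, Apoc3 (0.57) and Apoe (-0.0188) with lane and Apoc1 (0.65) without libraries rich in hepatocyte transcripts, and in brown fat Apoa4 with the replicate block (-0.0376). With offsets for exon length they were Apoa4 (-0.10) and Apoc3 (-0.0128) in brown fat, Apoc1 (-0.11) in olfactory bulb and Mttp (0.14) in brain. The offsets and the libraries without hepatocyte transcripts were chosen after seeing the data. None of these values passed in either fit.

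Leaving out a library turned the sign of late values over these ranges: Apoe in liver -0.00947 to 0.0982 and in stomach -0.27 to 0.67, Apoc1 in stomach -1.16 to 0.67, in olfactory bulb -0.17 to 0.63 and in brainstem -0.79 to 0.20, and Apoa4 in brown fat -0.46 to 2.63. Those of Mttp were -1.12 to 0.72 in stomach, -0.0562 to 0.70 in brown fat, -0.13 to 0.48 in psWAT, -0.00644 to 0.24 in olfactory bulb and -0.0541 to 0.13 in brainstem. Those of Apoa2 were -1.33 to 2.36 in brain and -0.12 to 0.59 in brainstem, that of Apoc3 in brain was -1.33 to 3.29, and that of Apoa2 in liver minus brain was -2.06 to 1.46.

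With 0 and 2 h together as the start, chosen after seeing the data, 6 genes passed in liver, against 15% of all genes.

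With 3 mice per time and 1 library linking the lanes at 8 h on the later side, lane and the late fast of the liver cannot otherwise be told apart.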

Other observations

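Antisense genes overlap some members. On the opposite strand Gm47528 shares 634 exon bases and Gm10680 632 with Apoa4, Gm47544 shares 524 with Apoa5, and Trmt10a shares 457 with Mttp, as Gm43691 does fewer. In liver Gm10680 ran from 0.309 to 4.02 normalized CPM, Trmt10a from 5.17 to 8.68 and Gm43691 from 0 to 0.380. Gm47528 and Gm47544 are absent from the count table, so their levels are not known.

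Hepatocyte transcripts were present in pgWAT beyond the libraries described above. Albumin stood at 127 CPM in 12 h replicate 3, whose 15 hepatocyte genes summed to 285 CPM. In that organ Apoe and Apoc1 were over 3 times the liver level scaled by hepatocyte markers in 18 and 17 of 18 libraries, and Mttp in 17. Apoa1, Apoa2, Apob, Apoa5 and Apoc3 were so in 0. Apoa4 and Apoc2, which did not pass the filter there, were so in 4 and 1. Scaled by albumin alone, the counts were 7 for Apoa4 and 1 for Apob and Apoc3, and the others were the same.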
